A study of Mus musculus with 15 samples.

Results

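Aerocyte capillary genes are transcripts that mark aerocytes, a type of endothelial cell of the lung capillary. The 8 genes described here, Car4, Ednrb, Apln, Tbx2, Fibin, Prx, Chst1 and Cyp4b1, were taken by symbol from a count table of 33340 mouse genes, and all 8 were found. They were chosen by their RNA levels across the days in these same libraries, which were known when the list was made. Their courses over the days are therefore given as a description, without a test of their own, and nothing is read from how many of them differed. All 8 passed the filter on low counts, which kept 17457 genes.

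The capillary bed of the alveolus is built from aerocytes and general capillary cells. Aerocytes are large, thin cells spread over the alveolar wall where gas is exchanged, and they depend on VEGF made by alveolar type 1 cells. General capillary cells divide after injury and can give rise to aerocytes. Apelin, made by aerocytes, acts on a receptor carried by general capillary cells, so the pair is a signal between the neighbouring capillary cell types.

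Polyadenylated RNA of whole lung from male C57BL/6 mice was sequenced at day 0 (4 libraries) and at day 7 (4), day 14 (4) and day 21 (3) after a single dose of bleomycin (5 U/kg into the trachea), a drug that breaks DNA and leads to scarring. Mice given bleomycin were 10 to 12 weeks old, and those of the study as a whole were 10 to 14 weeks old. Day 0 libraries are labelled as having no treatment, except replicate 4, whose title names a control while its treatment label names bleomycin. The title was followed, and this library counts as day 0. No genotype change or transgene is named for any group.

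Libraries held 15652008 to 18020661 counts, of which mitochondrial genes took 2.03 to 4.22%. This share differed within days and ran from 2.03 to 2.15% in all 4 day 7 libraries. The labels name no batch. The study calls its replicates biological, but the labels do not say whether each came from an animal of its own, so the errors below measure the spread between these libraries, which may be technical. Defining markers of lung cells were present in every group: Pecam1 of endothelium had day means of 537 to 812 CPM, Ager of alveolar type 1 cells 1908 to 2679.8 CPM and Scgb1a1 of club cells 3089.6 to 27889 CPM. In whole lung, fewer cells of a type and less RNA in each of them cannot be told apart.

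Coordinates of the genes are on GRCm38 (mm10) from GENCODE M21, and all 8 genes are protein coding. The genes of secreted proteins are Apln (ENSMUSG00000037010, chrX:48025146-48034853, minus strand) and Fibin (ENSMUSG00000074971, chr2:110360917-110363183, minus strand). The receptor gene Ednrb (ENSMUSG00000022122) lies at chr14:103814625-103844402 on the minus strand, and the transcription factor gene Tbx2 (ENSMUSG00000000093) at chr11:85832551-85841948 on the plus strand. The enzyme genes are Car4 (ENSMUSG00000000805, chr11:84957786-84966044, plus strand), Cyp4b1 (ENSMUSG00000028713, chr4:115624725-115647723, minus strand) and Chst1 (ENSMUSG00000027221, chr2:92599707-92615250, plus strand). Prx (ENSMUSG00000053198, chr7:27499324-27520214, plus strand) encodes a scaffold protein. Car4 and Tbx2 are on the same chromosome, and so are Fibin and Chst1. Prx shares 300 exon bases with Gm15541 on the opposite strand, and since the strand setting of the counting was not given, reads over those bases cannot be told apart.

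Promoter windows, the 250 bases before the RefSeq start site on GRCm38.p6, were found for 7 of the 8 genes (not Tbx2). Those printed, 5′ to 3′ on the strand of the gene, were chosen to span the courses described below: Cyp4b1 was lower from day 7 on, Car4 from day 14 on and Apln at day 21, while Prx did not pass the thresholds at any day. Their positions are chr4:115647722-115647971 (Cyp4b1, minus strand), chr11:84957504-84957753 (Car4, plus strand), chrX:48034854-48035103 (Apln, minus strand) and chr7:27499074-27499323 (Prx, plus strand). Capitals mark a match to either of the motifs CAGGAAG and CCGGAAG, which endothelial ETS factors can bind, on either strand.
Cyp4b1: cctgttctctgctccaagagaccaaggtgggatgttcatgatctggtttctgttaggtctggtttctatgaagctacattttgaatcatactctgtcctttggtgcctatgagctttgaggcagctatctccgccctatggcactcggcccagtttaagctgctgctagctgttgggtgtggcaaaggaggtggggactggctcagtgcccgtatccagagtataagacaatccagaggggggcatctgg
Car4: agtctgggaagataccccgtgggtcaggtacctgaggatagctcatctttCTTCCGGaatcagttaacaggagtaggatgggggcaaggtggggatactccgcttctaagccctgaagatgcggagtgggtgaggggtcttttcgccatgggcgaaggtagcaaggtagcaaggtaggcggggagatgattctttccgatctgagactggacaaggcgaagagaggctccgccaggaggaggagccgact
Apln: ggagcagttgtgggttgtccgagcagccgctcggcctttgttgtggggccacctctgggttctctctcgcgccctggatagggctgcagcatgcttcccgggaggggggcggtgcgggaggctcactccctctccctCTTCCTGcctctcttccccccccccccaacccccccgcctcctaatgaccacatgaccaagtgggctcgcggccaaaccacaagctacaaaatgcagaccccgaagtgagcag
Prx: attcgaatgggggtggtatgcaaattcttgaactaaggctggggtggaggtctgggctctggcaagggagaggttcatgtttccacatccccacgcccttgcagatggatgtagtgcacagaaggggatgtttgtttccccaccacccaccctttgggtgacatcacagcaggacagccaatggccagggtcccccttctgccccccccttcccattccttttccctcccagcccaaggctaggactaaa
The match in Car4, CTTCCGG, begins 200 bases before the start site, and the match in Apln, CTTCCTG, begins 113 bases before it. CAGGAAG or its reverse complement was found in 2 of the 7 windows (Chst1 and Apln), against 10.82% of the 32851 mouse windows of this length. CCGGAAG was found in 1 of the 7 (Car4), against 6.91% of all windows. The T-box motif AGGTGTGA was found in none of the 7, against 1.12% of all. The motifs CAGGAAG and CCGGAAG share the core GGAAG but no single stretch of bases matches both. A match is a description of the letters, and no match says nothing about the factor.

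The question asked of the time course is how the genes that mark aerocytes stood at each day after bleomycin, relative to untreated lung. All 8 had a lower mean than at day 0 at every later day. Values are CPM, counts scaled to the size of each library after TMM adjustment, and log2 fold changes are from edgeR. Their standard errors (SE) were derived from the log2 fold change and the F statistic of the quasi-likelihood test. A gene is past both thresholds, those the study used, when its Benjamini-Hochberg adjusted p over 17457 genes is under 0.05 and it differs by more than 1.5-fold. At day 7, Ednrb, Fibin and Cyp4b1 were past both thresholds, 3 of 8, while 7.36% of all genes tested were lower by that rule. At day 14 Car4 and Chst1 were added, which made 5 of 8, against 11.2% of all genes. At day 21 Apln was added, which made 6 of 8, against 10.1%. No gene of the 8 was called higher at any day, and Tbx2 and Prx were called at none.

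The median log2 fold change of the 8 was -0.44 at day 7, -0.84 at day 14 and -1.22 at day 21, where all genes tested had medians of 0.01, 0.02 and 0.02. Every library of the later day lay below every day 0 library for 3 of the 8 genes at day 7, for 6 at day 14 and for 6 at day 21. Over all genes tested, this was so for 13.2%, 14.4% and 16%. Since these contrasts are those for which the genes were listed, the shares are printed beside each other and no more is read from them. The number of the 8 called against day 0 stayed at 3, 5 and 6 when libraries were scaled by total count or by RLE factors, and with the mitochondrial share in the fit. Lower calls over all 17457 genes at those days were 1285, 1951 and 1757 in the fit used above. With total count scaling there were 1289, 1972 and 1748, and with RLE factors 1421, 2015 and 1843. With the mitochondrial share there were 402, 2037 and 1861. Libraries of one mitochondrial share were also compared, under 2.5% for day 7 and over 3.5% for day 14. The counts of the 8 were then 3 and 5, with Tbx2 in and Chst1 out at day 14, beside 880 of 16708 and 1503 of 16938 genes. Day 21 had too few libraries in either class. Without day 0 replicate 4 the counts of the 8 were 3, 6 and 6, beside 918, 1778 and 1715 of 17344 genes.

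**Figure D1:**
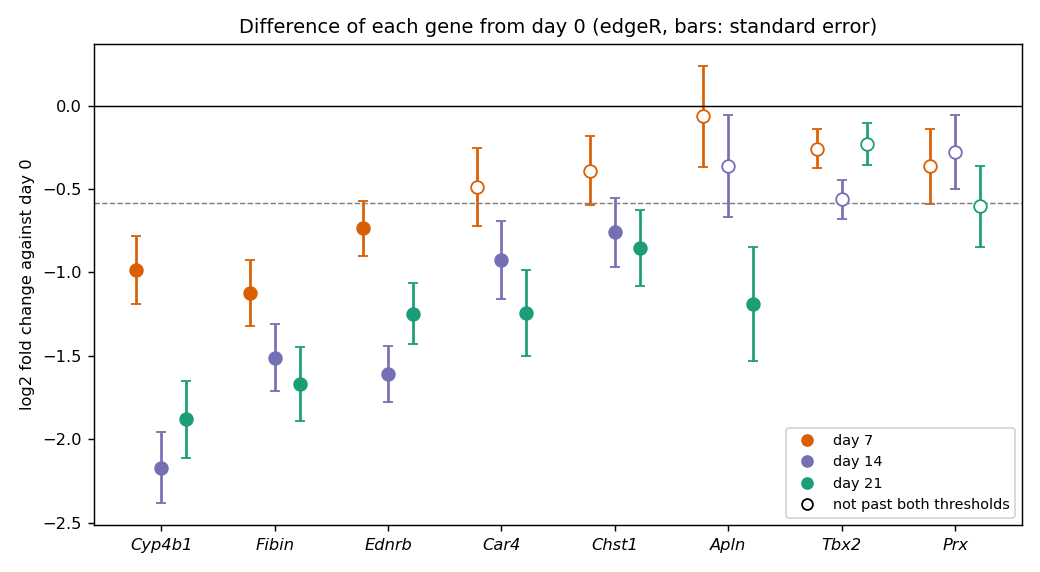
Log2 fold change of each of the 8 genes against day 0 (vertical axis) at days 7, 14 and 21, with genes along the horizontal axis. Bars are the standard error derived from the edgeR test, filled points were past both thresholds, and the dashed line marks a 1.5-fold decrease. Cyp4b1 reached -2.17 at day 14, while the 3 values of Tbx2 and the 3 of Prx were between -0.23 and -0.60.

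Of the secreted proteins, Fibin was lower from day 7 on and Apln at day 21. Fibin, a secreted protein named for its part in fin bud initiation in fish, stood at 105, 88.8, 92.1 and 102 CPM in the day 0 libraries. The day 7 values were 37.8, 31.4, 60.2 and 48.8 CPM, those of day 14 30.1, 40.8, 35.2 and 30.1, and those of day 21 25.8, 41.7 and 23.9. Every later library was under every day 0 library, and the 3 later days overlapped each other. Its mean was 97.0 ± 7.89 CPM (SD, n = 4) at day 0, and at day 21 it was 30.5 ± 9.77 (n = 3), or 31.4% of day 0. The log2 fold changes were -1.12 (SE 0.20), -1.51 (SE 0.20) and -1.67 (SE 0.22) at days 7, 14 and 21.

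Apln encodes apelin, the peptide ligand of the apelin receptor. Its level was 46.1, 35.4, 29.9 and 33.3 CPM at day 0 and 32.9, 22.3, 45.8 and 37.2 CPM at day 7. Day 7 and day 0 overlapped almost in full. At day 14 the libraries were 18 and 20.3 CPM (replicates 1 and 2) and 38.6 and 35.4 CPM (replicates 3 and 4), the last 2 within the day 0 range. At day 21 the values were 12.1, 9.86 and 25.6 CPM, all below the lowest day 0 library. The mean went from 36.2 ± 6.99 CPM (n = 4) at day 0 to 34.5 ± 9.76 at day 7, 28.1 ± 10.4 at day 14 and 15.8 ± 8.52 (n = 3) at day 21. Only the last log2 fold change, -1.19 (SE 0.34), was past both thresholds, beside -0.07 (SE 0.30) and -0.36 (SE 0.30). That call was lost without day 21 replicate 1 (-1.06) or replicate 2 (-0.98).

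Ednrb encodes the endothelin receptor of type B, which clears endothelin and signals in endothelium. It measured 103, 80.7, 80.8 and 103 CPM at day 0 and 47.6, 54.0, 61.0 and 58.1 CPM at day 7, then 39.3, 25.4, 29.1 and 26.5 CPM at day 14 and 39.9, 47.2 and 28.7 CPM at day 21. No later library reached the day 0 range. Days 7 and 14 did not overlap either, nor did days 7 and 21, while days 14 and 21 did. Mean levels were 91.8 ± 12.8 CPM at day 0 and 55.2 ± 5.81 at day 7 (n = 4 each). At day 14 the mean was 30.1 ± 6.34 CPM (n = 4), or 32.7% of day 0, and at day 21 it was 38.6 ± 9.33 (n = 3), or 42.1%. The fall was past both thresholds at each day, with log2 fold changes of -0.74 (SE 0.16), -1.61 (SE 0.17) and -1.25 (SE 0.18).

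Tbx2, a T-box transcription factor gene that lung mesenchyme also uses, was lowest at day 14. Levels were 279, 218, 273 and 251 CPM at day 0, 211, 197, 228 and 217 CPM at day 7, 200.3, 153, 192 and 147 CPM at day 14, and 219.7, 224 and 208 CPM at day 21. All 4 day 14 libraries were below all of day 0, while days 7 and 21 overlapped day 0. Its means were 255 ± 27.6, 213 ± 13.0, 173 ± 27.0 and 217 ± 8.38 CPM (n = 4, 4, 4 and 3). The largest of its 3 differences from day 0, at day 14, was a log2 fold change of -0.56 (SE 0.12), a 1.48-fold lower level that stopped short of the fold threshold. It was past both thresholds without a filter on low counts (-0.59), with a filter at a mean of 1 CPM (-0.59), within the libraries of high mitochondrial share (-0.69), without day 0 replicate 2 or 4 (-0.65 and -0.59), and without day 14 replicate 1 or 3 (-0.66 and -0.61), and it was called where no fold threshold was set.

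The 3 enzyme genes were each lower at days 14 and 21. Car4, carbonic anhydrase 4, is anchored at the cell surface and interconverts carbon dioxide and bicarbonate. Its level was 145, 116, 176 and 162 CPM at day 0, 99.2, 94.5, 132 and 101 CPM at day 7, 52.0, 98.9, 98.9 and 66.1 CPM at day 14, and 38.7, 80.5 and 70.4 CPM at day 21. Replicate 3 of day 7 lay within the day 0 range, and every library of days 14 and 21 lay below it. From 149.8 ± 26.2 CPM at day 0, the mean was 107 ± 17.4 at day 7 and 79.0 ± 23.7 at day 14 (n = 4 each), and 63.2 ± 21.8 at day 21 (n = 3). The log2 fold change was -0.49 (SE 0.23) at day 7, short of the thresholds, and -0.92 (SE 0.23) and -1.24 (SE 0.26) at days 14 and 21, past both.

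Cyp4b1, a cytochrome P450 that oxidises fatty acids and foreign compounds, had the largest change of the 8 at days 14 and 21. It measured 987, 808, 699 and 764 CPM in untreated lung, then 319, 431, 423 and 474 CPM by day 7, 172, 149, 175 and 228 CPM by day 14, and 178, 321 and 165 CPM by day 21. The day 0 libraries lay apart from all others, and so did day 7 from day 14. Day 21 replicate 2 lay within the day 7 range, and the other two day 21 libraries were at the level of day 14. Means were 815 ± 124 CPM at day 0, 412 ± 65.8 at day 7 and 181 ± 33.4 at day 14 (n = 4 each), and 221 ± 86.5 at day 21 (n = 3). Day 14 was at 22.2% of day 0. The log2 fold changes were -0.98 (SE 0.20), -2.17 (SE 0.21) and -1.88 (SE 0.23), all past both thresholds.

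Club cells, the secretory cells of the airway, also express Cyp4b1, and several of their markers were lower at the same days. Of 5 club cell markers tested, 2, 4 and 3 were called lower at days 7, 14 and 21, and none was called higher, beside background shares of 7.36, 11.2 and 10.1% lower. The summed level of the 5 was 27194 to 33858 CPM in day 0 libraries, 9426 to 12249 at day 7, 2974 to 7203 at day 14 and 1466 to 6425 at day 21. Scgb1a1, the secretoglobin that defines club cells, fell by 2.47 on the log2 scale at day 14 (SE 0.34, edgeR adjusted p = 8.38e-05). Cyp2f2, a club cell cytochrome P450, fell by 3.05 (SE 0.32, edgeR adjusted p = 6.89e-06), and Cldn10, a tight junction gene, fell by 2.19 (SE 0.29, edgeR adjusted p = 5.25e-05). Scgb3a2 measured 0.06 at day 7, fell by 1.62 at day 14 (SE 0.45, edgeR adjusted p = 0.0123) and measured -1.26 at day 21, where it was not called. Scgb3a1 varied widely and was not called at any day, with log2 values of 0.21, -2.89 and 2.53. Both were named after their values were seen. No marker of the 5 was at 0 in any group. The part of club cells in the Cyp4b1 values was not tested.

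Chst1, a sulfotransferase that acts on keratan sulfate and related sugar chains, was the lowest of the 8 per length. It measured 26.8, 20.7, 21.6 and 26.4 CPM at day 0, 20.8, 12.3, 21.4 and 18.5 CPM at day 7, 11.7, 10.9, 18.6 and 15.2 CPM at day 14, and 11.5, 11.1 and 17.1 CPM at day 21. Day 7 overlapped day 0 and the later days did not. The means of days 0, 7, 14 and 21 were 23.9 ± 3.16, 18.2 ± 4.16, 14.1 ± 3.53 and 13.2 ± 3.38 CPM (n = 4, 4, 4 and 3). Its log2 fold changes were -0.39 (SE 0.21), -0.76 (SE 0.21) and -0.85 (SE 0.23), the last 2 past both thresholds. The call at day 14 was lost when only libraries with over 3.5% mitochondrial counts were compared, 3 of day 14 with 2 of day 0 (-0.70).

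Prx encodes periaxin, known as a scaffold protein of myelinating Schwann cells, and it is also expressed in lung capillary endothelium. Its values were 278, 258, 261 and 309 CPM at day 0 and 169.8, 203, 215 and 272 CPM at day 7. They were 156, 276, 281 and 200.1 CPM at day 14 and 124, 264 and 158 CPM at day 21. At each later day at least 1 library lay within the day 0 range. Means were 277 ± 23.2, 215 ± 42.4, 228 ± 60.4 and 182 ± 72.8 CPM (n = 4, 4, 4 and 3), and the SD was larger at each later day than at day 0. Log2 fold changes were -0.36 (SE 0.22), -0.28 (SE 0.22) and -0.60 (SE 0.24). At day 21 the difference was 1.52-fold and did not pass on adjusted p. It did pass under DESeq2 (-0.62), under limma voom (-0.68), without a filter on low counts (-0.64), with the replicate number as a block (-0.63) and without day 21 replicate 2 (-1.01).

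Schwann cell markers were set beside Prx. Of 5 such genes, 4 could be tested, with median log2 fold changes of -0.16, -0.30 and -0.29 at days 7, 14 and 21. Sox10, the defining transcription factor, was near 0 and not tested. The summed level of the 5 ran over 425 to 625 CPM at day 0, 481 to 572 at day 7, 444 to 604 at day 14 and 282 to 632 at day 21, ranges that overlapped. The part of Schwann cells in the Prx values was not tested.

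**Figure D2:**
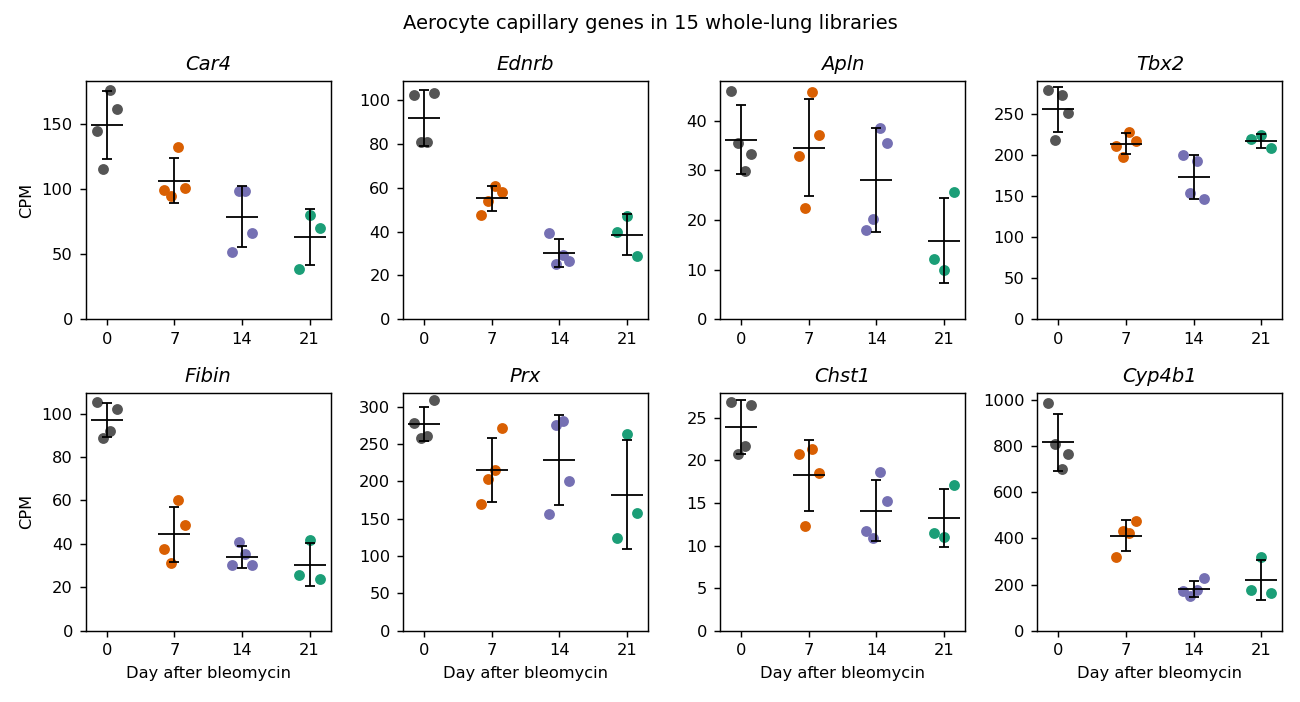
CPM of each of the 8 genes (vertical axes, starting at 0) in every library by day after bleomycin (horizontal axes). Points are libraries, and the lines are the mean and SD of 4, 4, 4 and 3 libraries. Cyp4b1, Fibin and Ednrb lie apart from day 0 at all later days, and Prx overlaps day 0 throughout.

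The later days were also set against each other. Between day 7 and day 14, Ednrb fell by 0.88 on the log2 scale (SE 0.17) and Cyp4b1 fell by 1.19 (SE 0.21), and both lay wholly below day 7. That made 2 of the 8 past both thresholds, against 3.23% of all genes lower (2.77% higher), and 2 not overlapping, against 8.36%. Between day 7 and day 21, Apln fell by 1.13 (SE 0.34) and Cyp4b1 by 0.90 (SE 0.22), 2 of the 8, against 4.34% of all genes lower (5.20% higher). Here Car4 and Ednrb were the 2 genes wholly below day 7, against 13.4% of all genes. With the log2 mitochondrial share as a covariate, neither comparison had any of the 8 past both thresholds, while the log2 differences of the genes called without it were -0.76 (Ednrb) and -1.07 (Cyp4b1) for day 14 and -1.06 (Apln) and -0.79 (Cyp4b1) for day 21. Over all genes, lower calls went from 564 to 106 and from 758 to 459 with that covariate. The count for day 21 against day 7 was 0 when replicate 1 of day 21 was left out, 4 when replicate 2 was, and 1 when replicate 3 was or when replicate 1, 3 or 4 of day 7 was.

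Between day 14 and day 21, none of the 8 was past both thresholds, and the same held for all 17457 genes in edgeR. At an unadjusted p under 0.05 there were 1714 such genes, and DESeq2 called 48 lower and 58 higher, none of them among the 8. Tbx2 did not overlap, with all 3 day 21 libraries above all 4 of day 14 (log2 difference 0.33, SE 0.12), against 3.05% of all genes above. The differences of Ednrb (0.36, SE 0.18) and Cyp4b1 (0.29, SE 0.22) were also above 0, and those of the other 5 were between -0.83 and -0.09.

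Levels can be set against each other between genes only per length of transcript. Per kilobase of exon, Cyp4b1 had the highest level at day 0, 361 ± 54.8 CPM per kb, and Chst1 the lowest, 8.92 ± 1.18. Next to Cyp4b1 were Car4 at 76.2 ± 13.3 and Tbx2 at 70.4 ± 7.60, whose libraries overlapped. Prx at 49.6 ± 4.15 and Fibin at 42.8 ± 3.48 overlapped narrowly, and Ednrb at 21.5 ± 3.0 stood apart from the genes on either side. Apln at 11.5 ± 2.22 overlapped with Chst1. By day 14 Cyp4b1 was at 80.2 ± 14.8 CPM per kb, still first. Tbx2 (47.7 ± 7.46), Prx (40.9 ± 10.8) and Car4 (40.2 ± 12.1) followed with overlapping libraries. Ednrb, above Apln at day 0, was below it at day 14 (7.05 ± 1.49), where its libraries overlapped those of Apln (8.92 ± 3.32) and Chst1 (5.26 ± 1.32).

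The 8 genes did not vary as a block among libraries of the same day. With each day's mean removed, the 28 pairs of genes had a median Pearson correlation of log2 CPM of 0.13 over 15 libraries, and 21 pairs were above 0. Apln and Chst1 were closest (0.89), then Car4 and Prx (0.76) and Fibin and Prx (0.69), and Ednrb and Apln were the farthest apart (-0.40). With the days left in, the median was 0.67. Ednrb and Cyp4b1 then had the highest value (0.95) and Apln and Tbx2 the lowest (0.15). These points share libraries and the day groups, and the values are descriptions.

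Among 11812 other genes with a mean of at least 5 CPM, the courses most like the mean of the 8 standardised log2 values over 15 libraries were those of Pcolce2 (Pearson r = 0.97), Inmt (0.97), Tmem204 (0.97), Ctdsp1 (0.97), Tspan13 (0.97), Aktip (0.96), Reck (0.96), Gid4 (0.96), Peg13 (0.96) and Ppp2r5a (0.95). With the day means removed, their r ran from 0.65 for Ppp2r5a to 0.93 for Tmem204. The gene most like a single member was Arhgap28 for Car4 (0.95), Plpp3 for Ednrb (0.98), Mavs for Apln (0.95) and Gucy1b1 for Tbx2 (0.90). For Fibin it was Mknk2 (0.96), for Prx Tmcc2 (0.93), for Chst1 Mettl24 (0.94) and for Cyp4b1 Cadps2 (0.96).

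Since the endothelium as a whole may change, the 8 genes were set against 10 genes expressed across endothelial cells (Pecam1, Cdh5, Cldn5, Tie1, Erg, Esam, Egfl7, Robo4, Ecscr and Eng). The mean log2 CPM of the 8 minus that of day 0 was -0.56 at day 7, -1.04 at day 14 and -1.16 at day 21, and that of the 10 endothelial genes was -0.49, -0.32 and -0.25. The difference of the means relative to day 0 was -0.07 ± 0.08 at day 7, -0.72 ± 0.20 at day 14 and -0.91 ± 0.20 at day 21 (log2, SD over 4, 4 and 3 libraries), beside an SD of 0.18 among the day 0 libraries. The day 7 libraries lay within the day 0 range on this difference, and every library of days 14 and 21 lay below it. Day 0 replicates 1 and 2, of low mitochondrial share like all of day 7, were at 0.18 and 0.12. Every day 7 library, from -0.18 to 0.01, lay below both. Day 0 replicates 3 and 4, of high share, were at -0.20 and -0.11. The part of this share in the difference was not tested. No test was run on this score, since the 8 were listed with their levels known.

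Gene by gene, the mean relative to the endothelial genes at day 14 ran from -1.85 ± 0.44 for Cyp4b1, -1.29 ± 0.58 for Ednrb and -1.19 ± 0.25 for Fibin to 0.01 ± 0.13 for Prx. Car4 was at -0.63 ± 0.19 and Chst1 at -0.45 ± 0.32. At day 7, the means of Apln (0.40 ± 0.32), Tbx2 (0.24 ± 0.08), Prx (0.11 ± 0.24), Chst1 (0.08 ± 0.31) and Car4 (0.01 ± 0.11) were above the endothelial genes. Those of Fibin (-0.67 ± 0.27), Cyp4b1 (-0.49 ± 0.22) and Ednrb (-0.24 ± 0.08) were below them. Only Fibin had all its day 7 libraries (-1.01 to -0.38) outside its day 0 range (-0.20 to 0.15). At day 21, Tbx2 was at 0.02 ± 0.17 and the other 7 were below the endothelial genes, from -1.69 ± 0.32 for Cyp4b1 and -1.46 ± 0.22 for Fibin to -0.42 ± 0.40 for Prx.

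**Figure D3:**
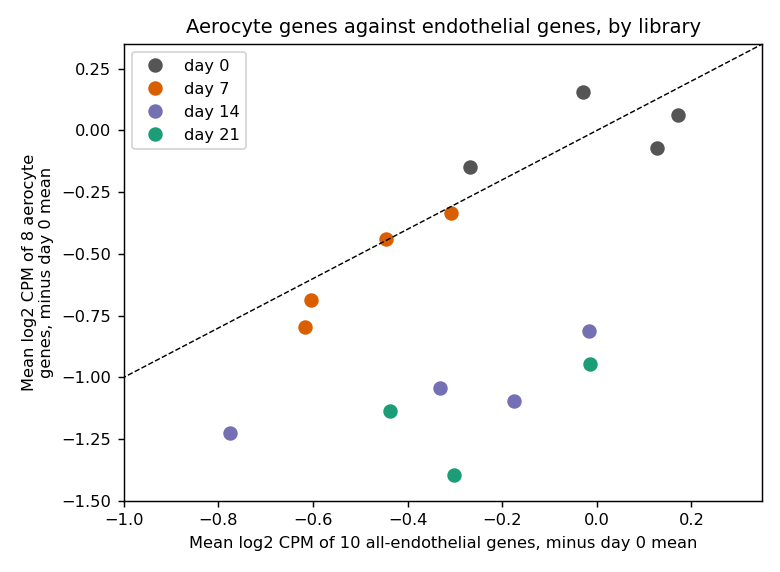
Mean log2 CPM of the 8 aerocyte genes (vertical axis) against that of 10 genes expressed across endothelial cells (horizontal axis) in each library, both minus their day 0 mean. The dashed line marks equal change, and points are libraries coloured by day. Measured up from the line, day 7 libraries lie between -0.18 and 0.01, and those of days 14 and 21 between -1.09 and -0.45.

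Other genes linked to aerocytes did not share a single direction. Of a list of 7, 1 was called higher at day 7, and 2 were lower and 3 higher at days 14 and 21. The background shares were 8.78, 12 and 12.4% higher, and 11.2 and 10.1% lower at days 14 and 21. Kdr, the main VEGF receptor of endothelium, went from 384 ± 43.5 CPM at day 0 to 209.8 ± 83.2 at day 14 and 197 ± 49.3 at day 21, and fell by 0.87 (SE 0.24, edgeR adjusted p = 0.0121) and 0.96 (SE 0.27, edgeR adjusted p = 0.0132) on the log2 scale. Rprml, expressed at 2.62 ± 0.58 CPM at day 0, fell by 1.55 at day 14 (SE 0.43, edgeR adjusted p = 0.0117) and fell by 2.46 at day 21 (SE 0.51, edgeR adjusted p = 0.00203). Emp2, a membrane protein gene that alveolar type 1 cells also express, had log2 values of -0.10, 0.11 and 0.08 at days 7, 14 and 21. Nckap5 had -0.15, -0.55 and -0.37, and neither gene was called. Higher at days 14 and 21 were Cdkn2b, a cell cycle inhibitor (1.35 and 1.43), Igfbp7, a secreted binding protein (0.88 and 0.96), and Sirpa, a surface receptor of myeloid cells (0.89 and 0.88). The median of the 7 was -0.10, 0.11 and 0.08.

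Ednrb and Apln belong to the endothelin and apelin pathways, in which peptide ligands are cut by converting enzymes and act on receptors coupled to G proteins. Of 8 other genes of these pathways, 6 could be tested, since the ligand genes Edn2 and Apela were at or near 0. Edn3, an endothelin ligand, was at 20.2 ± 0.41 CPM in untreated lung and at 12.6 ± 3.10, 5.97 ± 2.72 and 4.16 ± 3.06 CPM on days 7, 14 and 21. It fell by 1.76 at day 14 (SE 0.37, edgeR adjusted p = 0.00225) and by 2.27 at day 21 (SE 0.43, edgeR adjusted p = 0.00105). Ece2, a converting enzyme, rose at all 3 days, by 0.85, 1.08 and 1.08 on the log2 scale. The apelin receptor gene Aplnr had a log2 fold change of -1.23 at day 21 (SE 0.47, edgeR adjusted p = 0.0589). Edn1, the main endothelial ligand, measured -0.27, -0.02 and 0.35, Ednra 0.52, 0.00 and 0.25, and Ece1 -0.35, -0.36 and -0.09, and none of these 4 was called. Counts in this group were 1 higher at day 7, and 1 lower and 1 higher at days 14 and 21, near the shares over all genes (8.78, 12 and 12.4% higher, and 11.2 and 10.1% lower at the last 2 days).

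Aerocytes depend on VEGF signalling, and 10 ligand and receptor genes of that family were followed. At day 7 there were 2 called higher, at day 14 1 lower and 3 higher, and at day 21 1 lower and 4 higher. Over all genes the shares were 7.36, 11.2 and 10.1% lower and 8.78, 12 and 12.4% higher. Kdr was the 1 called lower. Pgf, a placental ligand of Flt1, rose by 1.48, 2.21 and 2.57 on the log2 scale at days 7, 14 and 21, from 3.69 ± 0.62 to 21.9 ± 6.77 CPM. Nrp2, a coreceptor, rose by 0.64, 0.85 and 0.95. Vegfc, the lymphatic ligand, rose by 0.75 and 0.62 at days 14 and 21, and Flt4, its receptor, by 1.05 at day 21. Vegfa, the ligand made by alveolar type 1 cells, was at 1062 CPM at day 0 and had log2 values of -0.44, 0.03 and -0.31, none of them called. Nor were Vegfb, Vegfd, Flt1 or Nrp1, with values between -0.48 and 0.19.

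General capillary cells are the cells most like aerocytes, and their 8 genes had the following counts by the same rule. At day 7, 1 was lower, at day 14, 2 were lower, and at day 21, 1 was higher, with medians of -0.47, -0.49 and -0.44. Over all genes, 7.36% and 11.2% were lower at days 7 and 14 and 12.4% higher at day 21, so 1 gene of 8 is near the background. Tek, the angiopoietin receptor, fell by 0.67 at day 7 (SE 0.14, edgeR adjusted p = 0.00339) and by 0.89 at day 14 (SE 0.14, edgeR adjusted p = 0.000231). Sema3c, a secreted guidance ligand, fell by 0.73 at day 14 (SE 0.22, edgeR adjusted p = 0.0207). Cxcl12, a chemokine that other lung cells also make, rose by 1.30 at day 21 (SE 0.27, edgeR adjusted p = 0.00191). Gpihbp1, which anchors lipoprotein lipase on capillaries, had -0.71, -0.24 and 0.38, and Plvap -0.42, -0.55 and -0.44. Kit (-0.51, -0.40 and -0.25), Cd93 (-0.31, -0.44 and -0.44) and Aplnr were not called either. These counts moved with the fit: the number called ran over 0 to 3 at day 7, 1 to 3 at day 14 and 1 to 3 at day 21 across alternatives, and single libraries moved them: day 0 replicates 2 and 4 and day 7 replicate 3 (2 called at day 7 without any of them), day 14 replicate 1 (1 called at day 14), and day 0 replicate 3 (2) and day 21 replicates 2 (3) and 3 (2) at day 21. Whether the 8 aerocyte genes and the 8 general capillary genes differ in how often they change was not tested.

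Genes of the other vessel types gave higher as well as lower calls. Their counts stand beside shares over all genes of 7.36, 11.2 and 10.1% lower and 8.78, 12 and 12.4% higher at days 7, 14 and 21. Of the 10 genes expressed across endothelium, 3 were lower at day 7, 2 lower and 1 higher at day 14, and 1 lower and 1 higher at day 21. Eng fell by 0.80 at day 14 and Pecam1 by 0.60, and Ecscr rose by 0.66. Of 6 arterial genes, 2 were lower at day 7, 2 lower and 3 higher at day 14 and 3 higher at day 21. At day 14, Dkk2 rose by 2.68 and the gap junction gene Gja5 by 1.01, and Bmx fell by 1.13. Dkk2 was low throughout, at 0.86 ± 0.49 CPM at day 0 and 5.60 ± 2.15 at day 14. Of 6 venous genes, 1 was lower and 2 higher at day 7, 2 higher at day 14 and 3 higher at day 21. At day 14, Ackr1, the atypical chemokine receptor of venules, was up by 2.85 and Selp, the adhesion molecule P-selectin, by 1.31. Ackr1 was near the floor, at 0.32 ± 0.28 CPM at day 0 and 2.27 ± 1.03 at day 14. Of 6 lymphatic genes, 1, 3 and 5 were higher at days 7, 14 and 21 and none lower, with Prox1, the defining lymphatic factor, up by 1.20, Pdpn by 1.16 and Ccl21a by 0.60 at day 14. Pdpn is also on the alveolar type 1 list.

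**Figure D4:**
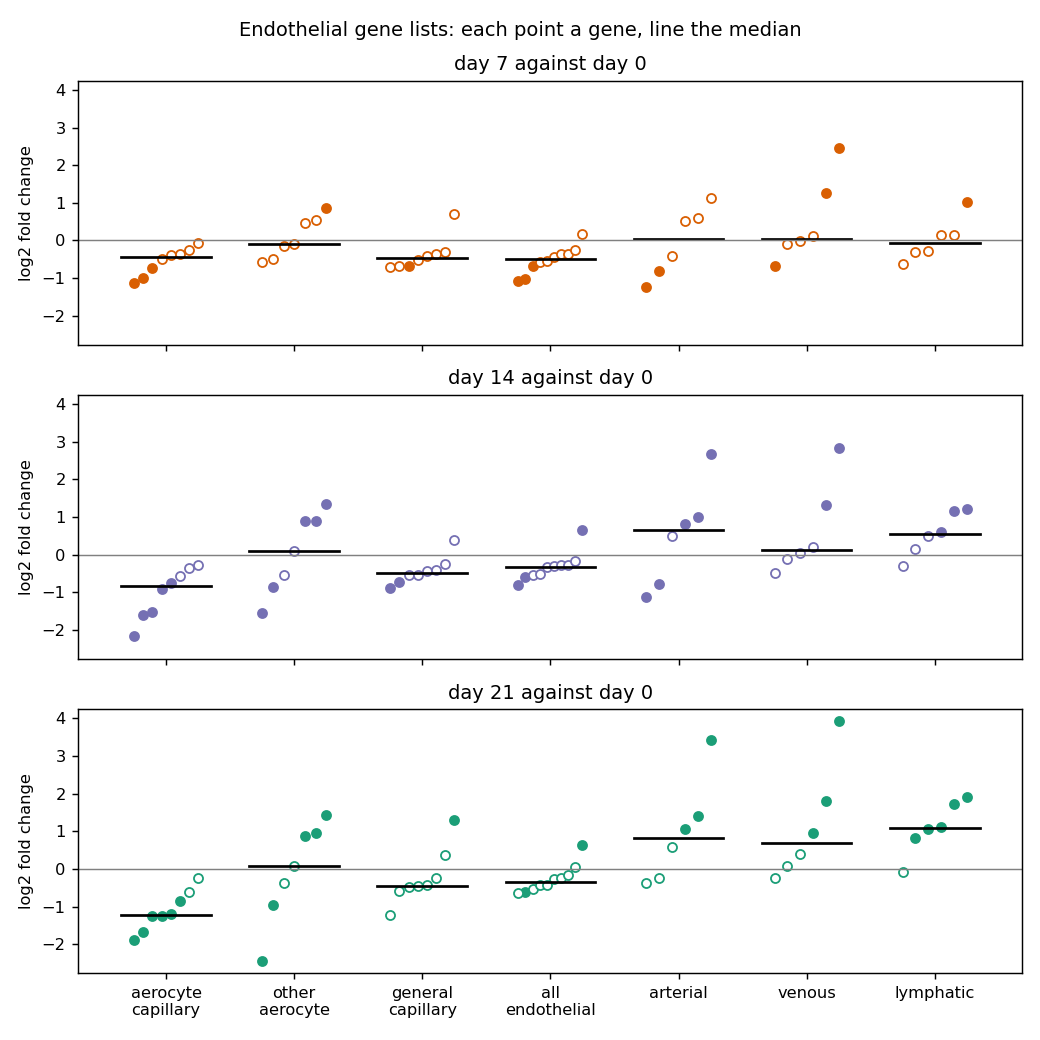
Log2 fold change against day 0 (vertical axes) of each gene in 7 lists of endothelial genes (horizontal axis), with a panel for each later day. Filled points were past both thresholds, and the black line is the median of the list. The median of the 8 aerocyte genes was -1.22 at day 21, beside -0.44 for general capillary genes and 1.09 for lymphatic genes.

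Markers of the other cells in whole lung are given for the same days, beside the same background shares. Of 8 alveolar type 1 genes, 1 was lower and 1 higher (Pdpn) at day 7, 1 higher at day 14, and 2 lower and 1 higher at day 21. Their summed level was 5281 to 7274 CPM at day 0, 5299 to 6140 at day 7, 4671 to 7119 at day 14 and 2694 to 6867 at day 21. Of 7 mesenchymal genes, 1 was lower and 1 higher at day 7, 2 lower and 1 higher at day 14, and 2 lower and 2 higher at day 21. Inmt, a methyltransferase of lung fibroblasts, fell by 3.19 at day 14 and Tcf21, a lipofibroblast factor, by 0.90, while the collagen gene Col1a1 rose by 2.87. The mesenchymal genes summed to 2346 to 3218 CPM at day 0, 2619 to 3122 at day 7, 1819 to 6025 at day 14 and 2458 to 4209 at day 21. Of 5 leukocyte genes, 2 (Laptm5 and Cd52) were higher at day 14 and 1 at day 21. Of 6 cardiac muscle genes, 5 were tested, and Myh6 was called lower at day 14, at 0.0434 CPM against 40.8 ± 43.0 at day 0. Cardiac genes summed to 15.4 to 702 CPM over all 15 libraries. The part of these cells in the values of the 8 genes was not tested.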

How the data were processed

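The authors trimmed reads with TrimGalore, aligned them to GRCm38 (mm10) with HISAT2 2.1.0, left out multiply aligned reads and deposited raw counts per Ensembl gene from HTSeq 0.6.0 for 15 whole-lung libraries. The annotation release and the strand setting of counting are not given in the sources used here. Symbols, positions and exon lengths came from GENCODE M21, which named 33267 of the 33340 genes; 450 genes had no count. Day groups and replicate numbers came from sample titles, which give 4, 4, 4 and 3 libraries where the series text gives fewer. No pair of libraries of a day was identical.

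Counts were tested in edgeR 4.0.16 (R 4.3.3) with filterByExpr, TMM factors and the quasi-likelihood test, with day as its single term for the 15 libraries together and a common coefficient of variation of 22.8%. Log2 CPM used a prior count of 2. The scripts were tested on simulated data. Alternatives were DESeq2 1.42.0, limma voom 3.58.1, RLE and total count scaling, other filters, a fit of 2 groups, the replicate number as a block, the log2 mitochondrial share as a covariate, no fold threshold, and leaving out each library. Fits within libraries of one mitochondrial share, under 2.5% or over 3.5%, were added after seeing the data.

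The 8 genes and the other gene lists were chosen with earlier results of these data known. Genes named were the 8, all genes of the other aerocyte, endothelin and apelin, VEGF and general capillary lists, and of every further list (endothelial, arterial, venous, lymphatic, alveolar type 1, club, mesenchymal, Schwann, cardiac, leukocyte) at most 3 called genes with the largest change at day 14. Named outside that rule were the 10 endothelial genes as the members of a score, Pecam1, Ager, Scgb1a1 and Sox10 as defining markers, and Scgb3a1 and Scgb3a2. The genes most like the 8 were the 10 with the highest Pearson correlation with their mean among those with at least 5 CPM, and the single best for each of the 8, predicted genes left out. Promoter sequences came from RefSeq. Calls of single genes of the Schwann list are not reported here.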

Additional observations from a re-analysis of the deposited data

Results flagged for a closer look

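Of 27 sets of 4 libraries of a gene or score at 1 day, 1 held a library far from the others: Car4 at day 7 was at 132 CPM in replicate 3, and between 94.5 and 101 CPM in the other 3. About 5% of such sets would hold one by chance.

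In 4 cases the level of a gene differed between later days when these were compared directly in edgeR across all genes. The genes were listed with their levels over the days known, so these calls are descriptions. All libraries of days 7, 14 and 21 came after bleomycin, so an effect of the drug apart from time was not tested. From day 7 to day 14 the log2 difference was -0.88 for Ednrb and -1.19 for Cyp4b1. From day 7 to day 21 it was -1.13 for Apln and -0.90 for Cyp4b1. All 4 calls were lost once the log2 mitochondrial share entered the model (-0.76, -1.07, -1.06 and -0.79), and all 4 day 7 libraries had a low share. Over all genes, lower calls went from 564 to 106 between days 7 and 14 and from 758 to 459 between days 7 and 21 in the same model. The part of this share in the differences was not tested further.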

How the results depend on the processing

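The number of the 8 genes called against day 0 was 3 at day 7 under every alternative run, 5 or 6 at day 14 and 5 to 7 at day 21. Leaving out 1 library at a time gave 3 to 3, 5 to 6 and 5 to 6. For day 14 against day 7 (2 called) the count was 0 with the mitochondrial covariate and 2 to 2 with a library left out. For day 21 against day 7 (2 called) it was 1 in a fit of the 2 groups alone, 0 with the covariate and 0 to 4 with a library left out. It was 3 under DESeq2, without a filter and under limma voom, where Car4 was added (-0.75, -0.78 and -0.81). No alternative called any of the 8 between days 14 and 21. Over all genes, lower calls for day 7 against day 0 were 402 with the covariate and 1881 without a fold threshold, against 1285 by the rule used above.

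General capillary genes called at day 7 (1) numbered 3 under DESeq2, without a filter and in a fit of the 2 groups, 2 under RLE factors, a mean of at least 1 CPM, limma voom and within libraries of one mitochondrial share, 0 with the covariate, and 1 to 2 with a library left out. At day 14 (2) they numbered 1 within one share and 1 to 3 with a library left out. At day 21 (1 higher) the balance turned to 2 lower and 1 higher, 3 in all, under DESeq2, without a filter, in a fit of the 2 groups and without day 21 replicate 2. There were 2 without a fold threshold and with the covariate, and 1 to 3 with a library left out.

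Differences near 0 changed sign. Tbx2 between days 7 and 21 was -0.00065 without a filter and -0.021 to 0.060 with a library left out (-0.010 when replicate 2 of day 7 was left out, -0.00050 and -0.021 for replicates 1 and 2 of day 21). Prx between days 7 and 14 was -0.13 with the covariate and -0.027 to 0.23 with a library left out (-0.012, -0.015 and -0.027 without day 7 replicate 1 and day 14 replicates 2 and 3). Apln at day 7 was -0.23 to 0.096 with a library left out (0.043 and 0.096 without day 0 replicate 1 and day 7 replicate 2). Between days 14 and 21, Chst1 was -0.34 to 0.069 (0.069 and 0.011 without day 14 replicate 3 and day 21 replicate 2), and Cyp4b1 was -0.094, without the latter, to 0.45. The 8 genes minus endothelial genes at day 7 was 0.0034 with 5 endothelial genes. The cause of these changes was not tested.

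Deviations of same-numbered libraries correlated between -0.33 and 0.50 over 21 pairs. Libraries with different numbers were not compared, so whether replicate numbers pair the libraries was not tested. With the replicate number as a block, 3, 5 and 7 of the 8 were called at days 7, 14 and 21 against day 0, 3 for day 21 against day 7, and 2, 2 and 2 general capillary genes. Sample number limits precision: at 3 or 4 libraries a day and a coefficient of variation of 22.8%, log2 differences carried standard errors of 0.12 to 0.34.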
